A study of Mus musculus with 6 samples.

Results

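The Wnt pathway was followed through 38 genes in mouse lung endothelial cells that lack HIF-2α and in control cells, all kept at low oxygen. The genes were 8 ligands, 8 Frizzled receptors, 3 coreceptors, 7 cytoplasmic effectors, 4 transcription factors of the TCF/LEF family, 4 secreted inhibitors and 4 feedback regulators. The array held probe sets named for a single gene for 18193 genes, among them 37 of the 38. The remaining one, Tcf7, is not analysed here. For each of the 37, the probe set with the highest mean over the 6 arrays stood for the gene.

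HIF-2α, encoded by Epas1, is an oxygen-sensitive transcription factor. The knockout group held 3 arrays of cells from mice with a VE-Cadherin-Cre transgene and HIF-2a floxed/floxed alleles. The control group held 3 arrays of cells that one label describes as VE-Cadherin-Cre with HIF-2a floxed/WT alleles, another as floxed on both copies and yet another as wild type, so a shared Cre transgene is stated in only some of them. The cells of both groups had 16 h at 0.5% oxygen, so the arrays hold no contrast with normal oxygen. VE-cadherin is an endothelial gene, and its promoter directs Cre to endothelium. The mice's age and sex are not given in the sources used here, nor is it stated that replicate arrays came from different mice or cultures. The p-values therefore reflect the spread of these arrays alone, and that spread may be technical.

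Wnt ligands are secreted lipid-modified proteins that bind Frizzled receptors together with the coreceptors LRP5 and LRP6. Without ligand, a complex of AXIN, APC and GSK3β marks β-catenin for destruction. With ligand, Dishevelled proteins disable that complex, and β-catenin enters the nucleus and acts with TCF/LEF factors. In blood vessels of the retina and brain, FZD4, LRP5 and TSPAN12 form the receptor for the ligand norrin, and this arm is known for building vessels with tight barriers.

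Of the 37 members measured, 17 had a mean signal over 16 intensity units in at least 1 group, and 20 were below 16 on every array of both groups. A signal of 16 is taken here as the floor of detection. The highest signal of the 20 on any array was 6.09, for Wnt5b, and the lowest signal among the 17 was 43.9, for Fzd2 in control 3, so no member lay near the floor signal. All 8 ligands were at the floor (Wnt2, Wnt2b, Wnt4, Wnt5a, Wnt5b, Wnt7b, Wnt9a and Wnt11), as were all 4 secreted inhibitors (Dkk2, Dkk3, Sfrp1 and Sfrp2). The feedback regulators Axin2, Nkd1 and Rnf43 were also there, with Lef1, Fzd1, Fzd3, Fzd8 and Dvl3. A floor value says that the probe set read no signal, and it is not a measurement of absence. The members above the floor were 5 of 8 receptors, all 3 coreceptors, 6 of 7 effectors, Tcf7l1, Tcf7l2 and Znrf3.

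**Figure D1:**
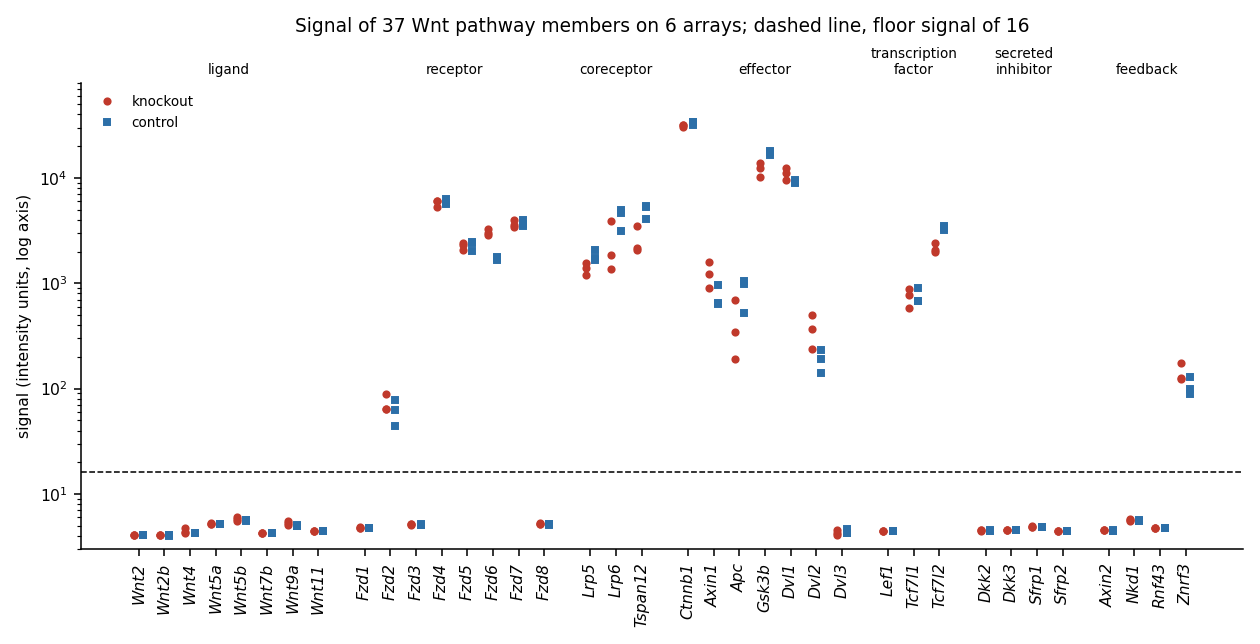
Signal of 37 members on each of the 6 arrays, by role, on a log axis in intensity units, with knockout arrays as circles left of control arrays as squares. The dashed line is the floor signal of 16, and 20 members, among them all 8 ligands, lie at or below 6.09. Probe sets differ in brightness, so levels are not compared between genes.

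Before the single members, several facts of the arrays bear on them. Variation within the groups ran largely along 1 shared axis, which held 87.1% of it over 12277 genes. On that axis knockouts 1, 2 and 3 lay at 0.24, 0.46 and -0.21, and controls 1, 2 and 3 at -0.27, 0.08 and -0.30. Over genes, the log2 difference of controls 1 and 3 had an SD of 0.14, against 0.31 to 0.68 for the other pairs of arrays within a group. The level of spiked-in control transcripts was 10.98 ± 0.12 on the log2 scale in knockout arrays and 10.76 ± 0.11 in control arrays (SD, n = 3 each). That level partly followed the groups, so an adjustment for it cannot fully separate a group difference from a technical one. The 3′ over 5′ signal of the cells' own β-actin and Gapdh transcripts is a sign of RNA quality. It was 0.44 ± 0.02 in knockout arrays and 0.49 ± 0.05 in control arrays on the log2 scale. The brightest of 2 Epas1 probe sets averaged 9392 ± 469 intensity units in knockouts and 9549 ± 90.9 in controls (limma adjusted p = 0.753). Its log2 difference was -0.02, and the mean of the Epas1 probe sets gave the opposite sign, 0.13. Epas1 passed in 1 of 22 other settings. The position of the Epas1 probes against the deleted part was not used, so their signal does not check the genotype.

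Endothelial markers were all above the floor (10 of 10), and their summed signal was 90501 to 99763 in knockouts and 113163 to 120834 in controls. All 10 had lower means in knockouts, and Pecam1, Tek, Tie1 and Erg fell, passing as lower in the limma test given below. Among all genes with a group mean over 16, 6.28% passed as lower. The Pecam1 and Tie1 calls ended when any single array was left out, and those of Tek and Erg held in 3 and 2 of these fits. All 8 fibroblast, 8 epithelial and 4 mesothelial markers were at the floor. Of 8 smooth muscle and pericyte markers Tagln alone was above it, and the list summed to 104 to 242 in knockouts and 66.5 to 109 in controls. Of 8 leukocyte markers Cd68 and Cd14 were above it, and both fell, with the defining marker Ptprc at the floor and sums of 807 to 1194 in knockouts against 3846 to 4510 in controls. The part of these levels in the results was not tested. In samples of many cells, fewer cells of a type and less RNA per cell cannot be told apart.

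The receptor Fzd6 was higher and the transcription factor Tcf7l2 lower in knockout cells, and the other 21 members tested did not pass. The test was limma on log2(intensity + 16) over 12277 genes with Benjamini-Hochberg adjustment and a threshold of 0.05. Over all genes tested 13.7% passed, 8.63% higher and 5.07% lower, and among the 9832 genes with a group mean over 16 the share was 17.0%, 10.7% higher and 6.28% lower. The members' 2 calls, 1 in each direction among 17 above the floor, are near that background. The median log2 difference, knockout minus control, was -0.03 over the 17 members and 0.05 over all 9832 genes above the floor. The median size of the difference, sign aside, was 0.40 over the members and 0.34 over those genes. Differences are on the log2(intensity + 16) scale, which understates changes of dim genes.

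**Figure D2:**
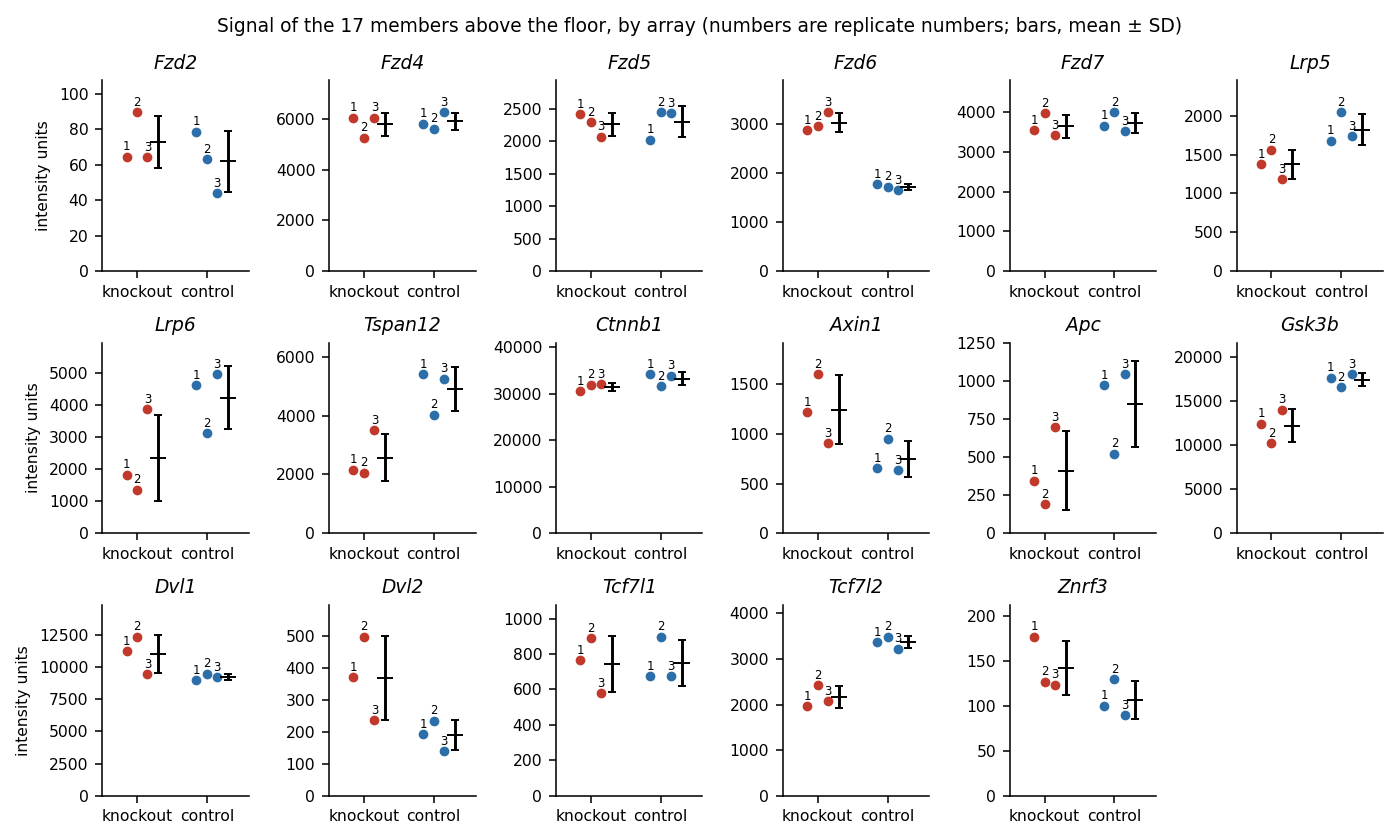
Signal in intensity units of the 17 members above the floor, with knockout arrays left of control arrays, replicate numbers beside the points, and mean ± SD bars (n = 3 each). The groups do not overlap for Fzd6, Lrp5, Tspan12, Gsk3b, Dvl2 and Tcf7l2. The axes start at 0 and differ between panels.

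Among the Frizzled receptors Fzd6 rose in knockout cells, and none of Fzd2, Fzd4, Fzd5 and Fzd7 passed. FZD6 is known chiefly for planar cell polarity, the orientation of cells within a sheet. Its signal was 2877, 2969 and 3253 in knockouts 1 to 3, against 1773, 1723 and 1648 in controls 1 to 3. Every knockout array lay above every control array. The log2 difference was 0.82 ± 0.06 (SE, 95% interval 0.66 to 0.97, limma adjusted p = 0.00531). A dimmer Fzd6 probe set read 377, 400 and 322 in knockouts and 95.8, 191 and 42.1 in controls, also without overlap. Its log2 difference was 1.79 ± 0.50, which did not pass over all probe sets (limma adjusted p = 0.109). With the mean of the Fzd6 probe sets in place of the brighter one, the difference was 1.3 (adjusted p = 0.0424). Fzd6 passed in all 22 other settings, with limma adjusted p between 7.12e-05 and 0.0424, including each array left out in turn, controls 1 and 3 averaged into 1 sample, and an adjustment for the spike-in level.

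Fzd4, the norrin receptor, gave 6050, 5257 and 6046 in knockouts and 5806, 5612 and 6266 in controls. The groups overlapped, and the log2 difference was -0.03 (95% interval -0.23 to 0.17, limma adjusted p = 0.87). A dimmer Fzd4 probe set had the opposite sign, 0.11 ± 0.04, with 1926, 2027 and 1953 in knockouts and 1747, 1891 and 1819 in controls (adjusted p = 0.154 over probe sets). Those arrays did not overlap, so the Fzd4 probe sets disagree on the sign of a small difference.

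Fzd5, best known from intestinal and yolk sac vessel development, averaged 2255 ± 174 in knockouts and 2297 ± 239 in controls. Its 95% interval was -0.29 to 0.24 on the log2 scale, and with array weights, 1 of 22 other settings, it passed as higher in knockouts at 0.19 (limma adjusted p = 0.0327). Fzd7 averaged 3649 ± 292 in knockouts and 3728 ± 247 in controls (SD, n = 3 each), with an interval of -0.24 to 0.18. Both intervals include 0 and end below the lower bound for Fzd6. Fzd2 was dim, at 64.4, 89.7 and 64.2 in knockouts and 78.7, 63.0 and 43.9 in controls, and its interval of -0.36 to 0.77 was wide. The difference between Fzd6 and the other receptors was not itself tested.

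**Figure D3:**
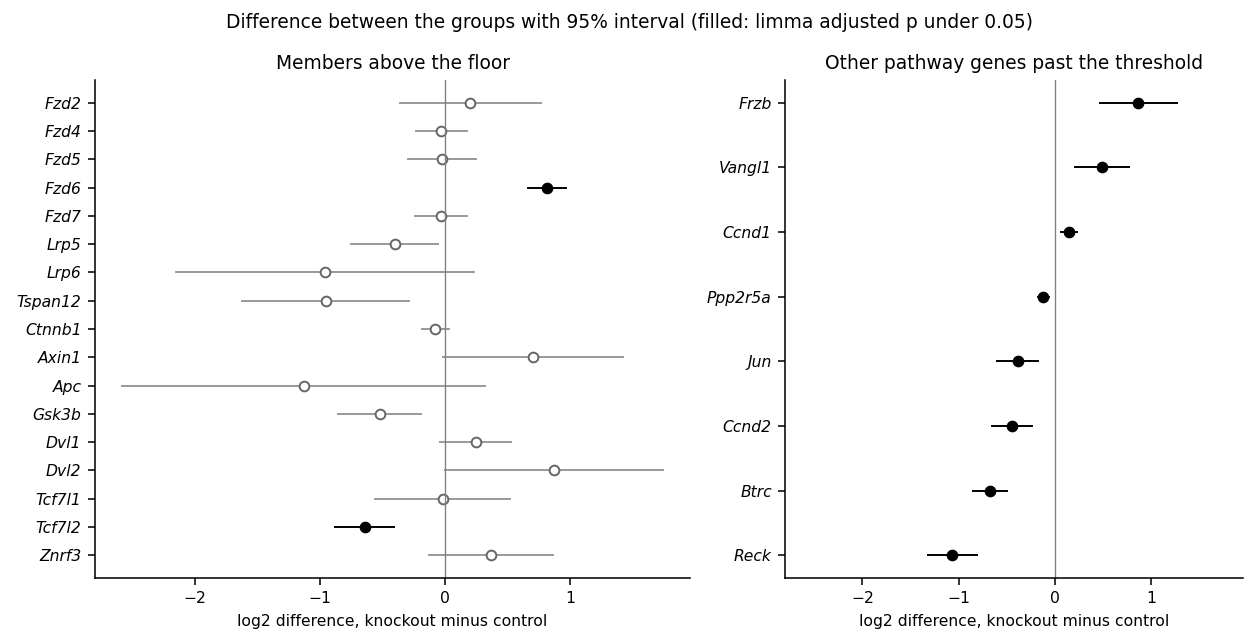
Log2 difference, knockout minus control, with its 95% interval, for the 17 members above the floor (left) and the 8 other pathway genes past the threshold (right). Filled points passed at a limma adjusted p under 0.05, which Fzd6 at 0.82 and Tcf7l2 at -0.64 did among the members.

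All 3 coreceptors had lower mean signal in knockout cells, and none passed. LRP5 and LRP6 carry the Wnt signal alongside Frizzled, and TSPAN12 is a tetraspanin that strengthens norrin signalling through FZD4. Lrp5 read 1381, 1565 and 1188 in knockouts and 1680, 2050 and 1736 in controls, without overlap, and its log2 difference was -0.40 ± 0.13 (SE, limma adjusted p = 0.119). Tspan12 read 2166, 2060 and 3494 in knockouts and 5399, 4034 and 5246 in controls, again without overlap, with a difference of -0.95 ± 0.26 (limma adjusted p = 0.0768). Lrp6 read 1835, 1362 and 3874 in knockouts and 4633, 3122 and 4968 in controls. Knockout 3 lay within the control range for Lrp6, and its difference was -0.96 ± 0.45 (limma adjusted p = 0.228). The second Lrp6 probe set did not overlap, at 302, 210 and 382 in knockouts and 515, 412 and 549 in controls.

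Knockouts 1 and 2 were the low arrays for Lrp6 and Tspan12, and control 2 was the lowest control for each. The same 3 arrays had positive positions on the shared axis. After adjustment for the spike-in level the Lrp6 difference turned to 0.05 and that of Tspan12 shrank to -0.36, while that of Lrp5 grew to -0.72 and passed (limma adjusted p = 0.0412). Without knockout 3, Lrp6 and Tspan12 passed, with differences of -1.39 and -1.19 (limma adjusted p = 0.0439 for Lrp6 and 0.0247 for Tspan12). Over the 22 other settings Lrp5 and Lrp6 each passed in 3 and Tspan12 in 4. The part of the shared axis in these differences was not tested.

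In the destruction complex, Gsk3b had lower signal and Axin1 higher signal on average in knockout cells, neither past the threshold. GSK3β is the kinase that phosphorylates β-catenin. Gsk3b read 12414, 10212 and 13977 in knockouts and 17608, 16573 and 17997 in controls. No knockout array reached the control range, and the log2 difference was -0.52 ± 0.13 (SE, limma adjusted p = 0.0626). Of 5 Gsk3b probe sets above the floor in a group, all 5 differences were negative, between -0.78 and -0.52, and 4 did not overlap.

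In a test over all probe sets that passed the filter, 2 of the 5 Gsk3b probe sets fell. One read 3802, 3391 and 4569 in knockouts and 6261, 6852 and 6850 in controls (limma adjusted p = 0.0366 over probe sets). The other read 1793, 1614 and 1833 in knockouts and 2804, 3303 and 2964 in controls (limma adjusted p = 0.0174 over probe sets). Thus the brightest Gsk3b probe set, which stands for the gene here, missed the threshold while dimmer ones passed. It passed in 8 of 22 other settings, among them the fit without knockout 3 (-0.63, limma adjusted p = 0.0335), with adjusted p between 0.000213 and 0.352 over the 22. After adjustment for the spike-in level the difference shrank to -0.28.

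Axin1, the scaffold of the complex, read 1220, 1598 and 906 in knockouts and 654, 952 and 636 in controls, and the log2 difference was 0.71 ± 0.27 (SE, limma adjusted p = 0.16). Apc, the large tumour suppressor of the complex, read 346, 192 and 697 in knockouts and 973, 524 and 1045 in controls, with a difference of -1.13 ± 0.55 (limma adjusted p = 0.239). For each gene the groups overlapped, through knockout 3 and control 2. All 4 Apc probe sets had negative differences and both Axin1 probe sets positive ones. After adjustment for the spike-in level, Axin1 shrank to 0.09 and Apc turned to 0.10. Of the 22 other settings Axin1 passed in 3 and Apc in 2.

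Ctnnb1, which encodes β-catenin, was close in both groups by its brightest probe set. That probe set read 30571, 31973 and 32087 in knockouts and 34214, 31650 and 33959 in controls, and the log2 difference was -0.08 ± 0.04 (95% interval -0.19 to 0.03, limma adjusted p = 0.279). The other Ctnnb1 probe sets were lower without overlap, with differences of -0.28 ± 0.05 (limma adjusted p = 0.0558 over probe sets) and -0.40 ± 0.08 (0.0536), and did not pass. The mean of the Ctnnb1 probe sets passed, at -0.25 (limma adjusted p = 0.0326). β-Catenin is regulated mainly through its protein, which arrays do not measure.

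**Figure D4:**
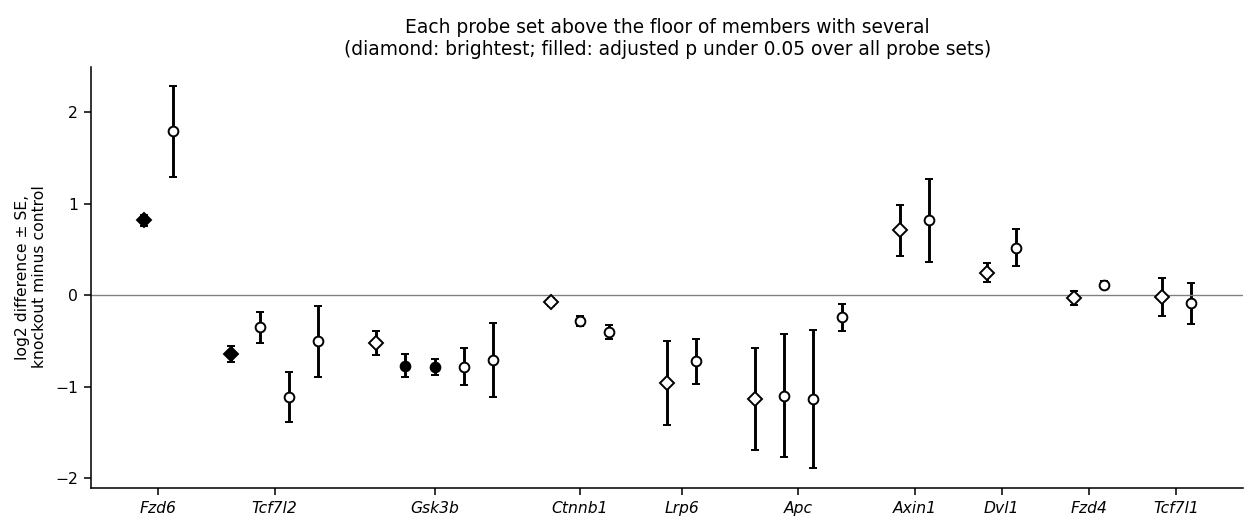
Log2 difference, knockout minus control, with its SE for each probe set above the floor of 10 members that have several. Diamonds mark the brightest probe set of the gene and filled symbols passed at an adjusted p under 0.05 over all probe sets. Signs agreed within each gene shown except Fzd4.

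The Dishevelled genes relay the signal from Frizzled. Dvl1 read 11235, 12397 and 9460 in knockouts and 8996, 9504 and 9218 in controls, with overlap. The log2 difference was 0.25 ± 0.11 (SE, limma adjusted p = 0.199). Dvl2 read 370, 498 and 236 in knockouts and 192, 235 and 140 in controls. The groups did not overlap, by the narrow margin between knockout 3 and control 2, and the difference was 0.87 ± 0.33 (limma adjusted p = 0.154). After adjustment for the spike-in level the difference was 0.02 for Dvl1 and 0.26 for Dvl2. Without knockout 3, Dvl1 passed at 0.35 (limma adjusted p = 0.0317).

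Tcf7l2 fell in knockout cells. TCF7L2, also called TCF4, is a nuclear partner of β-catenin. Its brightest probe set read 1964, 2426 and 2079 in knockouts and 3375, 3492 and 3228 in controls. The highest knockout array lay well below the lowest control array, and the log2 difference was -0.64 ± 0.09 (SE, 95% interval -0.88 to -0.41, limma adjusted p = 0.0201). All 4 Tcf7l2 probe sets had negative differences, from -1.11 to -0.35, and 2 did not overlap. A dimmer probe set without overlap read 261, 225 and 155 in knockouts and 393, 633 and 414 in controls (limma adjusted p = 0.0869 over probe sets).

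The Tcf7l2 call held without knockout 2 (limma adjusted p = 0.0151) or knockout 3 (adjusted p = 0.0362). It ended without knockout 1 (limma adjusted p = 0.0694), control 1 (0.0966), control 2 (0.0611) or control 3 (0.0851), with differences between -0.67 and -0.58. Averaging controls 1 and 3 also ended it (limma adjusted p = 0.089). Its size moved little over all settings, from -0.77 to -0.58, and after adjustment for the spike-in level it was -0.73 (adjusted p = 0.0853). Tcf7l1, a related factor known mainly as a repressor, did not pass (limma adjusted p = 0.955). It read 766, 887 and 578 in knockouts and 675, 898 and 673 in controls, with a 95% interval of -0.56 to 0.52.

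The letters around the annotated starts of the members are given as a description, since ACGTG is a core at which HIF factors bind DNA. Other forms of that core were not searched. In RefSeq promoter windows of assembly GRCm38.p6, which run from 250 bases before to 50 bases after a gene's start, 25 of the 38 members were found. Fzd6 had no window there, so its letters were not searched. On either strand ACGTG was in the windows of 6 of the 25 (24%), namely Lef1, Wnt5b, Wnt11, Wnt9a, Dvl2 and Tcf7l2, against 21.8% of all 27025 genes. The core of TCF/LEF sites, CTTTGAT, was in those of Wnt5b and Wnt11, against 4.29% of all genes. Of the 6 members with ACGTG, Lef1 and the 3 ligands were at the floor in both groups. The 250 bases before the start are printed for Tcf7l2, the member that fell, and for Dvl2, which held the core at 5 places, 3 of them read on both strands. Both lie on the plus strand, Tcf7l2 at chr19:55741560-55741809 and Dvl2 at chr11:70000342-70000591, written 5′ to 3′ with each ACGTG of either strand in capitals. A second Tcf7l2 start had no such letters in its upstream bases. A match of letters is no evidence of a bound site.
Tcf7l2: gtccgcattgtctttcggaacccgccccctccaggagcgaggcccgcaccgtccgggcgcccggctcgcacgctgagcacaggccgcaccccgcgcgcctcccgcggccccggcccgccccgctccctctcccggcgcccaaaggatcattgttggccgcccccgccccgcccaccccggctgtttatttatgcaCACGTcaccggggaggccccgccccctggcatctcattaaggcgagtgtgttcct
Dvl2: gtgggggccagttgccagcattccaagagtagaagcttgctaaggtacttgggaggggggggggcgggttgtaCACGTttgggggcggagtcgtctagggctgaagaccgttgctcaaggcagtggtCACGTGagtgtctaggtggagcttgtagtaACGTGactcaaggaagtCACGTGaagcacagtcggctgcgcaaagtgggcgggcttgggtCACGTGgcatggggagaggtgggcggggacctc

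Znrf3 was the one feedback regulator above the floor. ZNRF3 is a membrane ubiquitin ligase that removes Frizzled receptors, and with Axin2, Nkd1 and Rnf43 it is a known target of β-catenin signalling. It read 177, 127 and 123 in knockouts and 100, 130 and 89.3 in controls. The groups overlapped, and the log2 difference was 0.37 ± 0.19 (SE, limma adjusted p = 0.26). Its partner Rnf43 read below 16 on all arrays, as did Axin2 and Nkd1.

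Of the 17 members above the floor, 6 had knockout and control arrays without overlap, of which Fzd6 and Dvl2 were higher and Lrp5, Tspan12, Gsk3b and Tcf7l2 lower in knockouts. Among all 9832 genes above the floor 43.1% did not overlap, 27.7% higher and 15.4% lower, and 36.2% of all genes tested did not. The members' share in either direction is therefore no larger than that background. By direction, 2 of the 17 were higher, a smaller share than 27.7%, and 4 were lower, a larger share than 15.4%. These differences in share were not tested. Of the 17, 6 had a higher and 11 a lower mean in knockout cells.

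**Figure D5:**
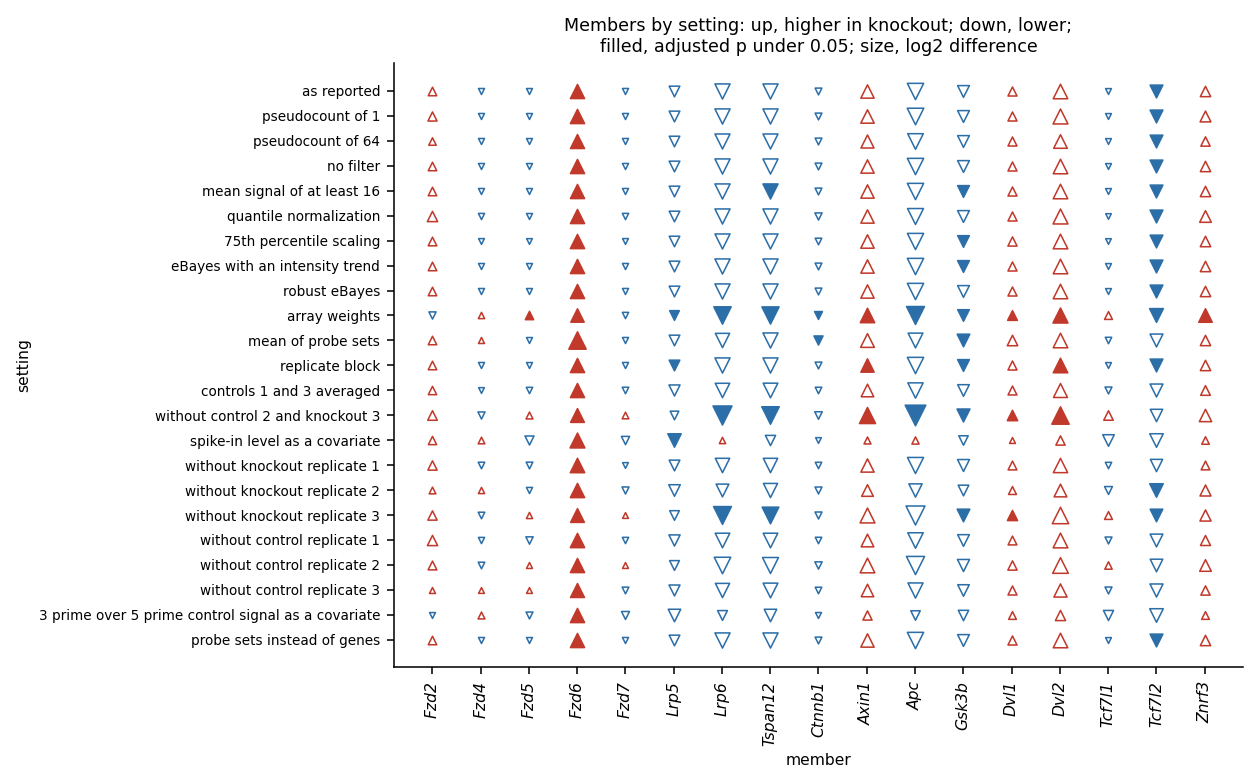
Each member above the floor (columns) under the reported fit and 22 other settings (rows). Triangles pointing up mark a higher and those pointing down a lower value in knockouts, filled where the limma adjusted p was under 0.05, with size following the log2 difference. Fzd6 was filled in every row and Tcf7l2 in 14 of 23.

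A wider list of 96 other genes of the pathway was read in the same fit. Of 95 with a probe set, 50 were above the floor and 61 were tested. In knockout cells 3 rose, 5 fell and 53 did not pass, against the 13.7% called over all genes. Of the other 11 Wnt ligands, the 4 R-spondins that boost the signal, and norrin, all were at the floor on every array. The export proteins Porcn and Wls, which make and carry Wnt ligands, were above it and did not pass. By role, 1 of 8 receptors and coreceptors tested fell (Reck), 1 of 4 secreted inhibitors rose (Frzb), and 2 of 13 cytoplasmic genes fell (Btrc and Ppp2r5a). Of 11 nuclear genes 0 passed in this limma fit, with 5 at an unadjusted p under 0.05. In the planar polarity and calcium arm 1 of 12 rose (Vangl1), and of 7 genes reported as β-catenin targets 1 rose (Ccnd1) and 2 fell (Jun and Ccnd2). The median log2 difference of the 50 above the floor was -0.11, and 25 of them did not overlap between groups, 7 higher and 18 lower in knockouts, against 43.1% of all genes above the floor, 27.7% higher and 15.4% lower.

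Of the 5 that fell, Reck had the largest log2 difference. RECK is a membrane-anchored protein known for inhibiting metalloproteases and, in brain endothelium, for presenting WNT7 ligands to Frizzled. It read 215, 202 and 204 in knockouts and 426, 521 and 413 in controls, with no overlap. Its log2 difference was -1.07 ± 0.10 (SE, limma adjusted p = 0.00917). Reck passed in 21 of 22 other settings, and without control 1 its adjusted p was 0.0519.

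Btrc, the ubiquitin ligase subunit that recognises phosphorylated β-catenin, read 512, 516 and 449 in knockouts and 778, 770 and 829 in controls, a difference of -0.67 ± 0.07 (limma adjusted p = 0.0109). A second, dim Btrc probe set did not follow, at 0.04 ± 0.12. The Btrc call ended without control 1 (limma adjusted p = 0.0618) or control 3 (0.06). Ppp2r5a, a regulatory subunit of the phosphatase PP2A, fell by 0.12 ± 0.02 (adjusted p = 0.0326), a small difference that passed without knockout 2 or knockout 3 and ended without any other single array.

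Vangl1, a core planar polarity protein, rose. It read 1955, 2323 and 1907 in knockouts and 1357, 1602 and 1419 in controls, and the log2 difference was 0.49 ± 0.11 (SE, limma adjusted p = 0.0488). A second Vangl1 probe set gave 0.50 without overlap. Neither passed over all probe sets (limma adjusted p = 0.0663 for the brighter and 0.129 for the dimmer). Of the 6 single arrays, the Vangl1 call over genes held without knockout 3 (limma adjusted p = 0.0486) and ended without any of the others. Frzb, a secreted inhibitor, read 29.9, 28.8 and 16.7 in knockouts, against 5.26 to 7.48 in controls, all at the floor. A second Frzb probe set was below 16 on every array of both groups. By the brighter probe set Frzb was at least 1.52-fold higher (limma adjusted p = 0.0316). That bound is the geometric mean of the knockout arrays against the floor signal of 16. Its call held without knockout 3 and ended without any other single array.

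Genes reported as β-catenin targets in other systems went both ways. Ccnd1, a cyclin of the G1 phase, averaged 31590 ± 924 in knockouts and 28462 ± 583 in controls (SD, n = 3 each). The difference of 0.15 ± 0.03 (SE) on the log2 scale passed (limma adjusted p = 0.044), and the call ended when any single array was left out. The dimmer Ccnd1 probe sets gave larger differences, 0.30 ± 0.09 without overlap and 0.62 ± 0.22 with overlap. None of the 3 Ccnd1 probe sets passed over all probe sets (limma adjusted p = 0.0559 for the brightest, 0.14 and 0.168). Ccnd2, a relative of Ccnd1, averaged 26747 ± 2415 in knockouts and 36318 ± 1594 in controls, a difference of -0.44 ± 0.08 (limma adjusted p = 0.0322). Of 7 Ccnd2 probe sets all were lower and 6 did not overlap. The same 6 passed over all probe sets at a limma adjusted p under 0.05. The Ccnd2 call by the brightest probe set held without knockout 1 and ended without any other array. Jun, a subunit of the AP-1 factor, averaged 6977 ± 643 in knockouts and 9092 ± 443 in controls, a difference of -0.38 ± 0.08 (limma adjusted p = 0.0466) that held without knockout 2 and ended without any other array. Neither Jun probe set passed over all probe sets (limma adjusted p = 0.0631 for the brighter and 0.0949 for the dimmer). Sp5, a target read widely in Wnt studies, was at the floor in both groups.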

How the data were processed

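Total RNA was amplified, labelled with biotin and hybridised, 1 array per sample, per the labels' protocols. The authors deposited linear intensity values, 1 for each probe set on each array. MAS5 and GCRMA are named, per the submitters' processing notes, with neither version nor role. Quantiles were nearly equal between arrays, so no further normalization was applied. Dim probe sets sit at nearly 1 value, so a fold against the floor is a lower bound.

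Probe sets were named from the platform annotation (34945 with 1 gene, 932 with several, 9211 not listed, of 45101). Of those with 1 gene, 34741 matched a current gene and 0 symbols changed. The 64 array controls were left out, then the dimmest 40% of probe sets by mean over the arrays, and the brightest probe set of each gene was kept, giving 12277 genes. Of the 37 members measured 23 passed this filter, and 6 of those were at the floor. Groups were compared with limma 3.58.1 in R 4.3.3 (lmFit, eBayes, two-sided) on log2(intensity + 16), with Benjamini-Hochberg adjustment over all genes. The script was tested on simulated data. Figures were drawn with matplotlib 3.10.9.

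The number of arrays limits the precision. Named were all members, Epas1, and other pathway genes past the threshold. Sp5, the ligands and R-spondins, and the markers are named as list members at the floor or above it. The members and lists were chosen with earlier results of these data known. Samples with the same replicate number did not deviate together in all pairs, so the numbers were not taken as pairing samples.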

Additional observations from a re-analysis of the deposited data

How the results depend on the processing

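Of 374 log2 differences of the 17 members over 22 other settings, 311 kept their direction and side of the threshold, 32 gained a call in the same direction, 9 lost one, all of Tcf7l2, and 22 turned in sign. Of these 22, Fzd5 with array weights passed. Calls over all genes, 1683 as reported, ran from 194 with controls 1 and 3 averaged to 8541 with array weights, whose estimation stopped early. Against 2 members and 8 other pathway genes called, array weights gave 14 and 45, leaving out control 2 and knockout 3 gave 8 and 21, and averaging controls 1 and 3 gave 1 and 1. The 3′ over 5′ signal as a covariate, added after seeing the data, gave 1 and 2. A mean signal of at least 16 gave 4 members. Of the other genes, 3 passed without a filter, 4 with 75th percentile scaling, 3 after adjusting for the spike-in level and 5 with probe sets in place of genes, also added later. Leaving out single arrays gave 1 to 6 members and 0 to 15 other genes, where the 0 is without control 1 (limma, 16 at an unadjusted p under 0.05). The replicate block gave 6 members and 13 other genes, and 2995 genes in all. Same-numbered arrays had correlations of deviations of -0.47, 0.84 and 0.80, so the numbers are not shown to pair samples. The cause of these changes was not tested.

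Signs turned as follows. With array weights, Fzd2 was -0.10, Fzd4 0.044, Tcf7l1 0.15 and Fzd5 0.19, which passed in the opposite direction (limma adjusted p = 0.0327). Without control 2 and knockout 3, Fzd5 was 0.085, Fzd7 0.065 and Tcf7l1 0.28. With spike-in adjustment, Fzd4 was 0.067, Lrp6 0.046, Apc 0.10 and Epas1 0.028. With the 3′ over 5′ signal, Fzd2 was -0.020 and Fzd4 0.082. With the mean of probe sets, Fzd4 was 0.028 and Epas1 0.13. Without single arrays, Fzd4 ran from -0.063 to 0.038, Fzd5 from -0.11 to 0.037, Fzd7 from -0.10 to 0.021, Tcf7l1 from -0.15 to 0.15 and Epas1 from -0.061 to 0.012.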
